A study of Mus musculus with 8 samples.

Results

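The genes described here control the entry of glucose into hepatic metabolism and its release. They are the hexokinases Hk1, Hk2 and Hk3, the regulatory protein Gckr, the glucose transporter Slc2a2, the pyruvate kinase Pklr and the gluconeogenic enzymes Pck1, Fbp1 and G6pc. All probes whose gene symbol in the array annotation is 1 of these 9 symbols were taken, which gave 9 of the 16593 genes and 13 of the 25697 probes of the array. Pklr and Slc2a2 have 3 probes each and the other 7 genes have 1. Of the 13 probes, 11 were detected on at least 4 of the 8 arrays, and 8 of the 9 genes could be tested, since Hk1 could not. Among these 8, Hk2 and Hk3 (25%) were higher in the TgC6hp55 livers, by 0.89 and 0.76 on the log2 scale, and 0 were lower. Of all tested features, 6.52% were higher and 4.51% lower. Both probes were close to background, and the calls held in 17 (Hk2) and 14 (Hk3) of 20 other settings.

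Liver RNA came from 4 wild type and 4 TgC6hp55 male mice of the C57BL/6J strain, all aged 21 weeks, with 1 Illumina Mouse Ref-8 v2.0 BeadChip for each animal. TgC6hp55 mice carry human TNFR1, a receptor of TNF, under the CollagenVI (Col6a1) promoter, which is active in mesenchymal cells, and the construct also holds a human growth hormone (hGH) minigene. The study derived its main line from 1 founder and compared mice that were littermates or cohoused. Human TNFR1 and hGH were not analysed here, and the feeding state of the mice when the livers were taken is not given in the sources used here. The arrays add a transcript view to the study's question of how the transgenic mice handle glucose.

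Hexokinases phosphorylate glucose and so trap it in the cell. Hk1, Hk2 and Hk3 are low-Km enzymes that hepatocytes hardly express and other cells use. Gckr encodes a regulatory protein of the hepatocyte nucleus that responds to fructose phosphates. Slc2a2 (GLUT2) carries glucose across the hepatocyte membrane in both directions. Pklr encodes the liver pyruvate kinase of the last step of glycolysis, and Pck1, Fbp1 and G6pc encode the enzymes that bypass the irreversible glycolytic steps when the liver makes glucose. Insulin, glucagon and carbohydrate intake set the transcription of several of these genes.

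The mean intensity of an array ranged from 167 to 179 in the wild type livers and from 112 in TgC6hp55 replicate 4 to 224 in TgC6hp55 replicate 3, and 10541 to 12011 probes were detected (detection p under 0.05). With 4 arrays a group, their number limits the precision of what follows. Of 10 hepatocyte markers 9 were tested, 0 passed in either direction, and the summed signal of the 10 was 88029 to 89120 in wild type and 86603 to 90345 in TgC6hp55 livers. This sum rests on very bright probes, such as Trf (SD 0 in wild type), whose values quantile normalization holds nearly equal across arrays. It therefore cannot show whether hepatocyte content differed. The probe of Alb was dim, with log2 means of 5.36 in wild type and 5.73 in TgC6hp55 livers. Fgb, another hepatocyte marker, was below detection on every array. Wild type replicate 3 stood apart in the markers of pancreatic acinar cells, whose summed signal was 10591 there, 574 to 652 in the other wild type livers and 177 to 245 in the TgC6hp55 livers. Results that rest on this liver are therefore also given without it. Over 8540 features, 942 (11%) had an adjusted p under 0.05 in limma's test, 557 of them higher (6.52%) and 385 lower (4.51%).

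The promoters of the 2 genes that were higher and of the 2 classical gluconeogenic genes are shown, to set the regulatory sequence of the hexokinases beside that of genes under glucagon and insulin control. Each line gives the 250 bases before the annotated start, 5′ to 3′ on the strand of the gene, from RefSeq on GRCm38.p6. Capitals mark matches on either strand to the CRE core ACGTCA (in 6.47% of 32851 promoters of this length), the FOXO-type element TGTTTTG (5.56%), the TATA box TATAAA (12.4%), the CCAAT box (33.8%), the GC box GGGCGG (32.7%) and the ETS-type core AGGAAGT (7.69%). A match is a match of letters and shows no binding.
Hk2: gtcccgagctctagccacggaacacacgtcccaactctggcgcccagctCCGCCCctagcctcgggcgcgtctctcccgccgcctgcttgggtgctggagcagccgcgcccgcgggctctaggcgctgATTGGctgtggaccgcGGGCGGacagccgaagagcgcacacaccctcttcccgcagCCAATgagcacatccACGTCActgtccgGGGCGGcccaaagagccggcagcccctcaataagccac
Hk3: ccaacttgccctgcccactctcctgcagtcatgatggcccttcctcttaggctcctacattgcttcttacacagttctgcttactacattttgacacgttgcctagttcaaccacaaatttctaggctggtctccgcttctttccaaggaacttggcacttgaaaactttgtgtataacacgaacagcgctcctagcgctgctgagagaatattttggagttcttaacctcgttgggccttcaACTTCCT
Pck1: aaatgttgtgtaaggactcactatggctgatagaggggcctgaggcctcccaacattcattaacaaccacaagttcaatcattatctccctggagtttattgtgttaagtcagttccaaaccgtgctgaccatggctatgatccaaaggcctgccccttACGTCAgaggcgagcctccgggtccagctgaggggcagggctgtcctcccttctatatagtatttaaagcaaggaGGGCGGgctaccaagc
G6pc: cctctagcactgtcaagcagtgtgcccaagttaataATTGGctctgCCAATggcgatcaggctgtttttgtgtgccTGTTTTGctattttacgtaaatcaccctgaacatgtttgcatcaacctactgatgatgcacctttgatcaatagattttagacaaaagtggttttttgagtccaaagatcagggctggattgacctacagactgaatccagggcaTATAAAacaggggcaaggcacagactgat

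These stretches lie at chr6:82774455-82774704 on the minus strand (Hk2), chr13:55021386-55021635 on the minus strand (Hk3), chr2:173152823-173153072 on the plus strand (Pck1) and chr11:101367466-101367715 on the plus strand (G6pc). The Hk2 promoter is the richest of the 4 in G and C, at 69.6%, beside 47.2% for Hk3, 50.8% for Pck1, 43.2% for G6pc and a median of 52.4% over all promoters. Hk2 holds 3 GC boxes, 2 CCAAT boxes and a CRE core at 51 to 46 bases before the start. Pck1 has a CRE core too, at 91 to 86 bases before the start. G6pc holds a TATA box and a FOXO-type element, and the Hk3 stretch has only the ETS-type core among these motifs, in the last 7 bases before the start. All 9 genes had a promoter entry.

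Hk2, the insulin-responsive hexokinase of muscle and fat that is also used by activated immune cells, was higher in the TgC6hp55 livers. Its intensity before normalization was 7, 15, 34 and 16 in wild type replicates 1 to 4 and 38, 48, 64 and 30 in TgC6hp55 replicates 1 to 4. It was detected on 3 of 4 wild type arrays and on all 4 TgC6hp55 arrays. On the normalized log2 scale the wild type livers gave 4.53, 4.96, 5.58 and 5.04 and the TgC6hp55 livers 5.87, 5.93, 5.86 and 6.03. Every TgC6hp55 liver thus lay above every wild type liver, and the wild type livers were spread more widely, with replicate 3 the highest and replicate 1 not detected. The means were 5.03 ± 0.43 (SD, n = 4) and 5.92 ± 0.078 (SD, n = 4), a log2 fold change of 0.89 (standard error 0.18, 95% interval 0.50 to 1.28, adjusted p = 0.00711 from limma). Without wild type replicate 3 the log2 fold change was 1.08 (adjusted p = 0.000428).

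Hk3, the hexokinase of myeloid cells, followed the same order of groups. Its intensity was 7, 11, 27 and 21 in wild type replicates 1 to 4 and 33, 47, 50 and 22 in TgC6hp55 replicates 1 to 4, with detection on 3 and 4 arrays, respectively. The log2 signals were 4.53, 4.77, 5.37 and 5.23 in the wild type livers and 5.72, 5.91, 5.60 and 5.70 in the TgC6hp55 livers. The groups did not overlap, and wild type replicate 1 was again the lowest and replicate 3 the highest of its group. The means were 4.98 ± 0.39 (SD, n = 4) and 5.73 ± 0.13 (SD, n = 4), a log2 fold change of 0.76 (standard error 0.17, 95% interval 0.38 to 1.13, adjusted p = 0.0140 from limma). It was 0.89 without wild type replicate 3 (adjusted p = 0.00468) and did not pass without wild type replicate 2 (0.69, adjusted p = 0.0518).

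For Hk1, the hexokinase of most other tissues, the signal was at background. Its intensities were -2, 7, 0 and 6 in the wild type livers and 7, 2, -3 and 0 in the TgC6hp55 livers. On 1 of the 8 arrays, that of TgC6hp55 replicate 1, the probe passed the detection limit, with a detection value of 0.0476. No fold change is given for it. Both genes that were called had groups without overlap, which 786 of all features (9.2%) showed in the higher direction, beside 645 (7.55%) in the lower. The 2 calls are 25% of the 8 tested genes, beside 6.52% of all features that were higher. The median log2 fold change of the 8 genes was 0.16, beside -0.0082 over all features.

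**Figure D1:**
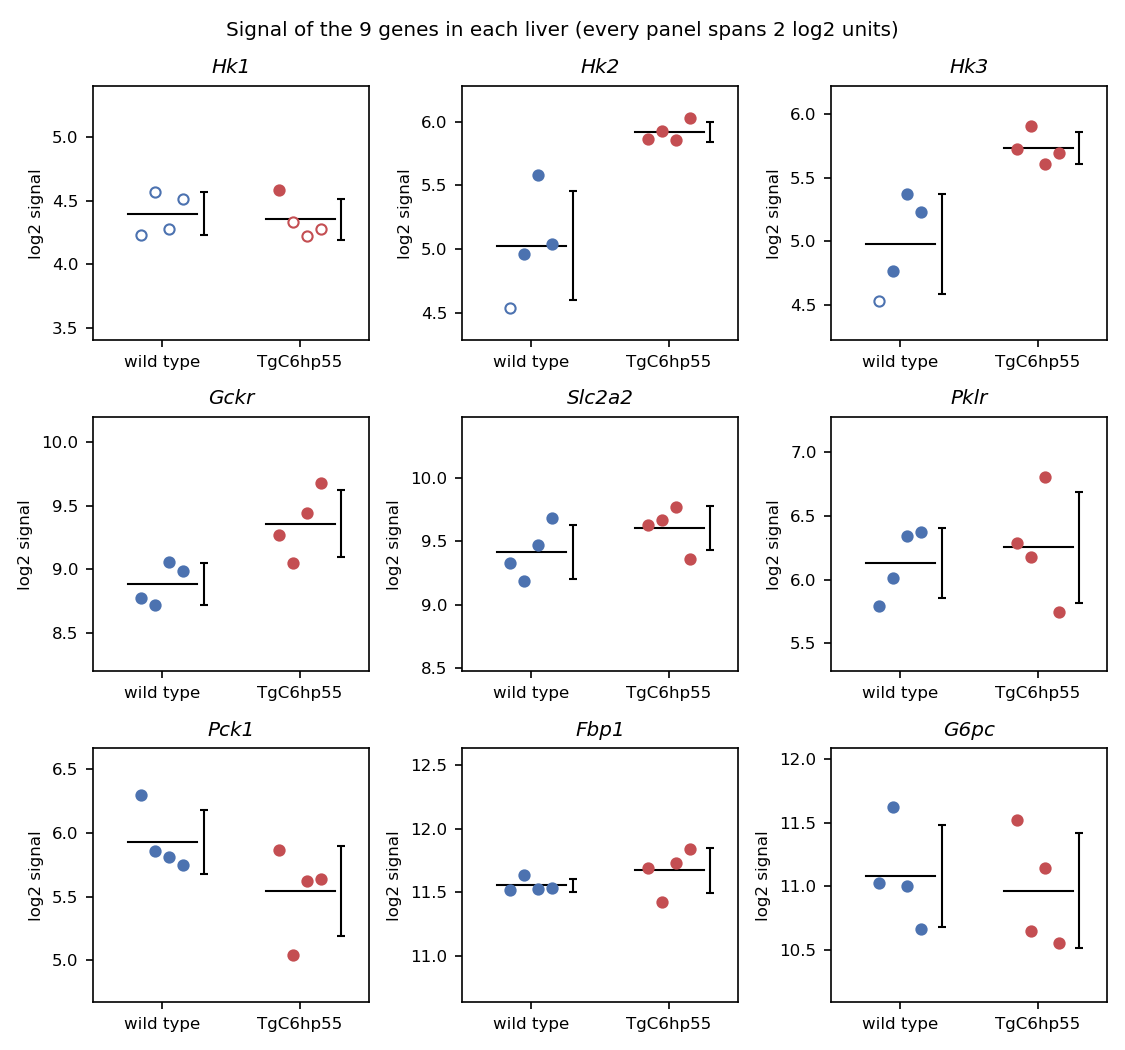
Normalized log2 signal of the 9 genes in each liver, with wild type in blue and TgC6hp55 in red, replicates 1 to 4 from left to right, filled where the probe was detected and open where it was not. The horizontal line is the mean and the bar beside it 1 SD (n = 4). The TgC6hp55 livers lie above all wild type livers for Hk2 and Hk3, while the groups overlap for the other genes, narrowly for Gckr, and Hk1 is mostly undetected.

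The measured size of the 2 increases depends on the treatment of dim signals, since an offset of 16 shrinks differences between low values. With an offset of 50 the log2 fold change was 0.50 for Hk2 and 0.41 for Hk3, and with the intensities as deposited and no offset it was 1.55 and 1.38, where neither passed (adjusted p = 0.0636 and 0.0822). In the cubic spline normalized intensities the mean of Hk2 was 29.0 ± 10.9 (SD, n = 4) in wild type and 57.8 ± 3.77 (SD, n = 4) in TgC6hp55 livers, a ratio of 1.99, and that of Hk3 was 27.8 ± 9.88 (SD, n = 4) and 50.5 ± 5.45 (SD, n = 4), a ratio of 1.82. Both calls were lost in the methods' t-test (adjusted p = 0.0711 and 0.0932) and when the brightest and the dimmest TgC6hp55 arrays were left out together (0.0632 and 0.0585). The plot of adjusted p by setting shows these cases.

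**Figure D2:**
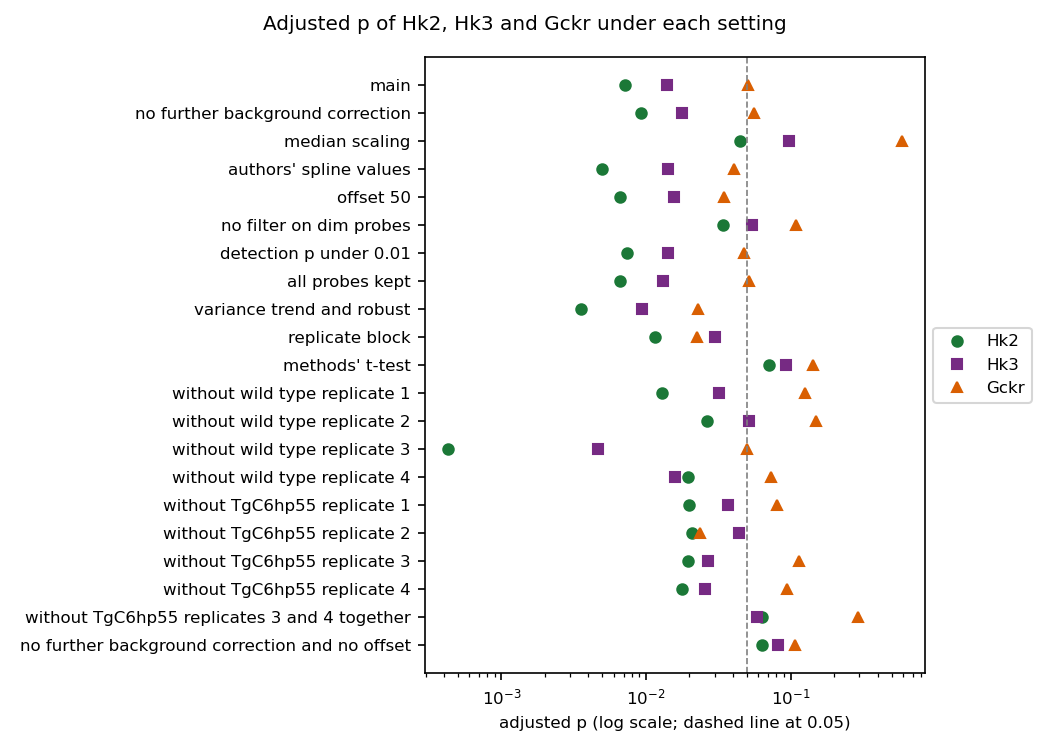
Adjusted p of Hk2, Hk3 and Gckr (horizontal axis, log scale) in the main comparison and under each other setting (vertical axis), with a dashed line at 0.05. Hk2 passed in 17, Hk3 in 14 and Gckr in 7 of the 20 other settings.

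Markers of macrophages and Kupffer cells moved with the hexokinases. Of 14 listed symbols, of which Emr1 and Adgre1 name 1 gene, 11 genes were on the array and 10 were tested. In the TgC6hp55 livers 5 were higher (50%, beside 6.52% of all features) and 0 were lower, and 1, Cd5l, was below detection on every array. The 5 were C1qb, C1qa, Lyz1, Adgre1 and Marco, with log2 fold changes of 0.72 for Marco to 1.30 for C1qb, and the median of the 10 was 0.98. Marco was detected on 1 wild type and 4 TgC6hp55 arrays, so it entered the test through the group where it is high. Its intensities were 1 to 10 in the wild type and 10 to 60 in the TgC6hp55 livers, close to background. C1qa, a subunit of complement C1q that Kupffer cells make, read 5.26, 5.72, 6.71 and 6.11 in the wild type livers and 6.95, 6.97, 7.47 and 7.19 in the TgC6hp55 livers (log2 fold change 1.19, standard error 0.25, adjusted p = 0.00977 from limma), so these groups did not overlap. The calls were lost in 4 of 20 other settings for C1qa, in 10 for Adgre1, in 12 for C1qb and Marco and in 13 for Lyz1. The number of higher markers was 8 without wild type replicate 3 and 6 without TgC6hp55 replicate 4. It was 1 to 3 without any other liver, and 0 in the methods' t-test, with every dim probe kept or with no offset. Lyz1 is a close paralog of Lyz2, and its probe may share signal.

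The summed signal of the 11 macrophage markers on the array was 738, 1294, 2981 and 1443 in wild type replicates 1 to 4 and 2890, 3116, 4495 and 2466 in TgC6hp55 replicates 1 to 4. The groups overlapped in this sum, through wild type replicate 3. It is a sum of linear signals, so Lyz1, the brightest of the tested markers, weighs most in it. The log2 means of Lyz1 were 9.30 in wild type and 10.39 in TgC6hp55 livers, beside 7.91 and 8.90 for Vsig4, the next brightest. The sum and the ranks drawn from it therefore rest largely on the Lyz1 probe. In the wild type group the order of the livers was the same for the sum, Hk2 and Hk3, with replicate 1 the lowest, then replicates 2, 4 and 3. In the TgC6hp55 group it was not the same, since replicate 3 had the highest sum and the lowest Hk2 and Hk3 signals. Among sinusoidal endothelial markers, 2 of 9 tested were higher (22.2%, beside 6.52% of all features), Fcgr2b by 0.69 (adjusted p = 0.0103) and Pecam1 by 0.47 (adjusted p = 0.0133). Both calls were lost under median scaling (0.296 for Fcgr2b and 0.384 for Pecam1) and on leaving out TgC6hp55 replicates 3 and 4 together (0.0748 and 0.0940), and that of Fcgr2b also in the methods' t-test (0.0701). The summed signal of the endothelial markers was 1769 to 2680 in wild type and 2778 to 3022 in TgC6hp55 livers, without overlap. Monocyte and neutrophil markers did not pass (0 of 5 tested, 6 of 13 below detection on every array, summed signal 68 to 120 and 88 to 126). Of the lymphocyte markers 0 of 3 tested passed, with a low summed signal of 42 to 65 and 84 to 122 that did not overlap. Cd3g, Cd3e and Cd79b were detected on 1, 1 and 2 wild type and on 4, 3 and 4 TgC6hp55 arrays. They thus entered the test mainly through the TgC6hp55 group. Skeletal muscle markers, of interest because muscle uses Hk2, were below detection on every array for 8 of 10, and 0 could be tested. The part of these cell types in the hexokinase signal was not tested, and in RNA of whole liver more cells of a type and more RNA per cell cannot be told apart.

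**Figure D3:**
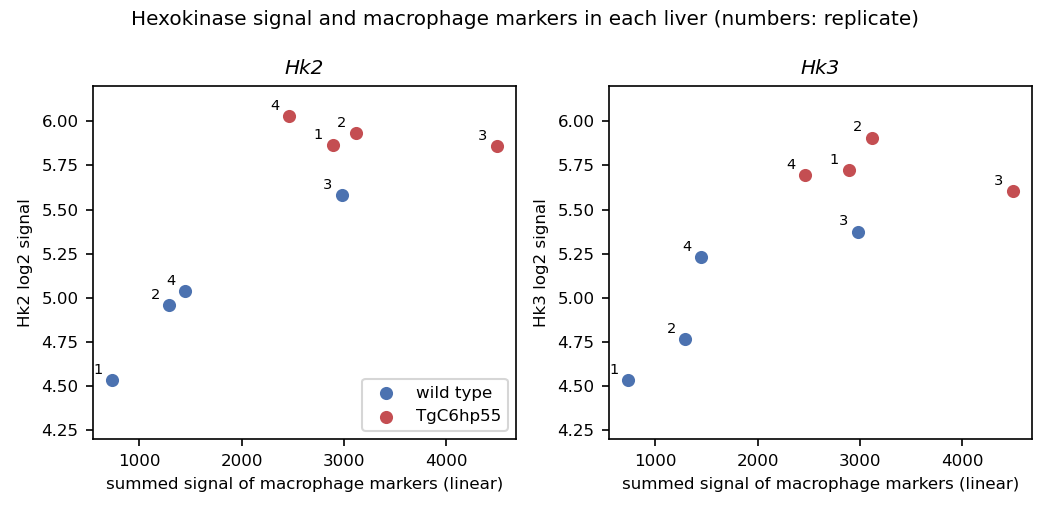
Log2 signal of Hk2 (left) and Hk3 (right) in each liver against the summed linear signal of 11 macrophage and Kupffer cell markers, with wild type in blue, TgC6hp55 in red and the replicate number beside each point. Among the wild type livers both hexokinases rank as the marker sum does, in which the probe of Lyz1 weighs most. Wild type replicate 3 has a marker sum within the range of the TgC6hp55 livers, 2466 to 4495, with lower Hk2 and Hk3 signals than they have.

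Gckr, the regulatory protein of hepatocytes, was close to the threshold. Its intensities were 451, 435, 550 and 496 in the wild type livers and 538, 526, 946 and 523 in the TgC6hp55 livers. The log2 signals were 8.78, 8.72, 9.06 and 8.98 in wild type replicates 1 to 4 and 9.27, 9.05, 9.44 and 9.68 in TgC6hp55 replicates 1 to 4. Only TgC6hp55 replicate 2 lay below a wild type liver, replicate 3. The log2 fold change was 0.47 (standard error 0.14, 95% interval 0.17 to 0.78, adjusted p = 0.0508 from limma). The adjusted p was 0.0405 with the cubic spline values of the authors, 0.0498 without wild type replicate 3 and 0.592 with median scaling, where the log2 fold change was 0.35.

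Slc2a2, the bidirectional glucose transporter of hepatocytes, read 9.33, 9.19, 9.47 and 9.68 in the wild type livers and 9.63, 9.67, 9.77 and 9.36 in the TgC6hp55 livers. The groups overlapped, and TgC6hp55 replicate 4 was the lowest of its group. The log2 fold change was 0.19 (standard error 0.13, 95% interval -0.095 to 0.47, adjusted p = 0.417 from limma). Its 2 other probes gave 0.15 (95% interval -0.24 to 0.54) and -0.047 (95% interval -0.48 to 0.39).

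Pklr, whose product makes pyruvate and whose transcription in liver is raised by carbohydrate, read 5.79, 6.01, 6.34 and 6.37 in the wild type livers and 6.29, 6.17, 6.81 and 5.75 in the TgC6hp55 livers. The TgC6hp55 livers held both the highest and the lowest of the 8 values. The log2 fold change was 0.13 (standard error 0.20, 95% interval -0.32 to 0.57, adjusted p = 0.763 from limma). Another probe of Pklr gave 0.071 (95% interval -0.33 to 0.47), and the third was detected on no array. For Slc2a2 and Pklr the test thus left room for changes in either direction.

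Among the gluconeogenic enzymes, Pck1 came nearest to a difference. It encodes the cytosolic phosphoenolpyruvate carboxykinase, which turns oxaloacetate into phosphoenolpyruvate. Its intensities were 64, 43, 43 and 37 in the wild type livers and 38, 18, 51 and 21 in the TgC6hp55 livers. This only probe of Pck1 was thus dim, beside 965 to 3445 for G6pc and 2418 to 4585 for Fbp1. The log2 signals were 6.30, 5.86, 5.82 and 5.75 in the wild type livers and 5.87, 5.04, 5.62 and 5.64 in the TgC6hp55 livers. TgC6hp55 replicate 1 lay within the wild type range and the other 3 below it. The log2 fold change was -0.39 (standard error 0.18, 95% interval -0.77 to -0.0011, unadjusted p = 0.0494, adjusted p = 0.203 from limma), and it was negative in all of the 20 other settings, at -0.58 to -0.22, with 0 of them passing.

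Fbp1 encodes fructose bisphosphatase, which removes a phosphate from fructose bisphosphate on the way to glucose. Its log2 signals were 11.52, 11.64, 11.53 and 11.53 in the wild type livers and 11.69, 11.43, 11.73 and 11.84 in the TgC6hp55 livers. The wild type livers lay close together and within the span of the TgC6hp55 livers. The log2 fold change was 0.12 (standard error 0.11, 95% interval -0.11 to 0.35, adjusted p = 0.543 from limma).

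G6pc encodes the catalytic subunit of glucose-6-phosphatase, the last step of glucose release. Its intensities were 2208, 3445, 2185 and 1620 in the wild type livers and 2589, 1613, 3087 and 965 in the TgC6hp55 livers, and its log2 signals 11.03, 11.62, 11.01 and 10.66 and 11.52, 10.65, 11.14 and 10.55, respectively. The groups overlapped almost fully, and livers of the same group differed more from each other than the group means did. The means were 11.08 ± 0.40 (SD, n = 4) and 10.97 ± 0.45 (SD, n = 4), a log2 fold change of -0.11 (standard error 0.23, 95% interval -0.62 to 0.39, adjusted p = 0.816 from limma). Of all the 8 tested genes G6pc thus had the widest interval. At an unadjusted p under 0.05, 4 of the 8 genes differed (50%), beside 24.5% of all features.

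**Figure D4:**
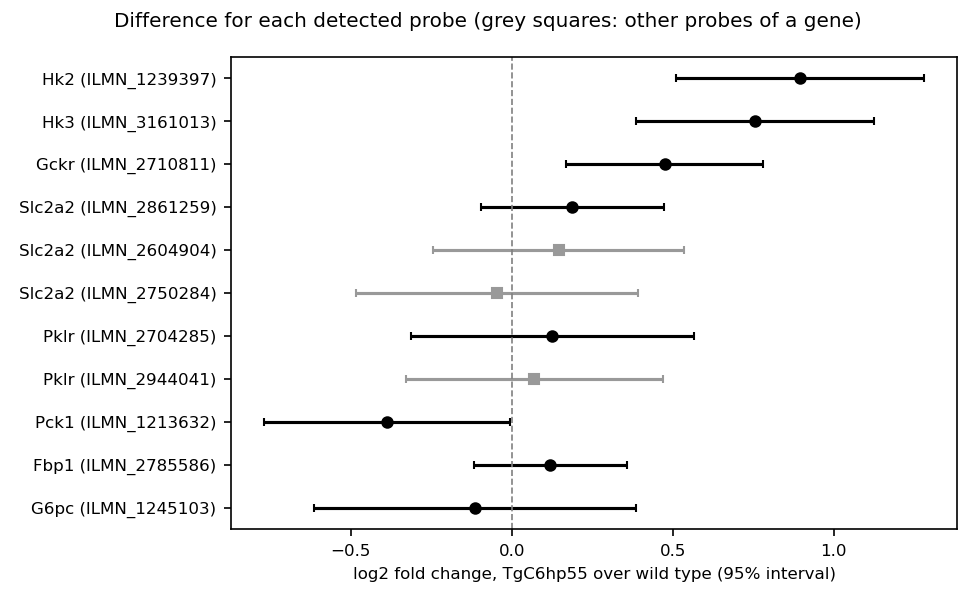
Log2 fold change of TgC6hp55 over wild type livers for the 11 detected probes, with 95% intervals from the limma fit that keeps all probes. Black circles mark the probe that stands for a gene and grey squares its other probes. The intervals of Hk2, Hk3 and Gckr lie above 0, that of Pck1 ends just below 0, and those of the others span 0.

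Other genes of glucose metabolism were taken from 8 lists. Among 11 tested genes of glycolysis after the hexokinase step, 1 was lower and 0 higher (median log2 fold change -0.060, with 4.51% of all features lower). The lower gene was Aldoc, the brain form of aldolase, which read 6.65, 6.69, 6.65 and 6.87 in the wild type livers and 5.39, 5.67, 6.25 and 5.24 in the TgC6hp55 livers. The groups did not overlap and the log2 fold change was -1.08 (standard error 0.18, adjusted p = 0.00291 from limma), with a call in all of the 20 other settings. Gapdh and Pkm, with -0.24 and 0.32, did not pass.

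Beside Pck1, Fbp1 and G6pc, 11 genes of gluconeogenesis and glucose release were tested. Of these, 1 was lower and 0 higher (median -0.057, with 4.51% of all features lower). This was Ldhd, the mitochondrial dehydrogenase that oxidises D-lactate and is not a step of glucose synthesis from L-lactate. Its log2 signals were 8.87, 9.08, 8.91 and 8.89 in the wild type livers and 8.36, 8.42, 8.54 and 8.26 in the TgC6hp55 livers, which did not overlap (log2 fold change -0.54, standard error 0.099, adjusted p = 0.00448 from limma). It did not pass with median scaling (0.168) and passed in the other 19 settings. Gpd1, the glycerol-3-phosphate dehydrogenase that brings glycerol into this pathway, had -0.34 (adjusted p = 0.208).

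Of 4 tested glucose transporters beside Slc2a2, 1 was lower and 0 higher (with 4.51% of all features lower). Slc2a8 (GLUT8), an intracellular hexose transporter, read 6.30, 6.40, 6.18 and 6.29 in the wild type livers and 5.87, 5.79, 6.07 and 5.70 in the TgC6hp55 livers. The log2 fold change was -0.43 (standard error 0.11, adjusted p = 0.0218 from limma), and the call was lost in 5 of 20 other settings, under median scaling (0.433) and on leaving out TgC6hp55 replicate 2 (0.0600) or wild type replicate 1, 2 or 4 (0.0502 to 0.0767).

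Of 12 tested genes that respond to insulin and carbohydrate, 1 was higher and 0 lower (median 0.16, with 6.52% of all features higher). Elovl6, an elongase of the fatty acids made from glucose, read 8.38, 8.27, 8.66 and 8.61 in the wild type livers and 9.52, 8.79, 9.72 and 9.26 in the TgC6hp55 livers. These did not overlap (log2 fold change 0.84, standard error 0.18, adjusted p = 0.0104 from limma), and the call was lost with median scaling (0.207), in the methods' t-test (0.0840) and without TgC6hp55 replicates 3 and 4 (0.0844).

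In the 4 other lists 0 genes passed in limma. Of 10 tested control enzymes of glycolysis and pyruvate oxidation, Pfkfb4, which sets the level of an allosteric activator of phosphofructokinase, had 0.37 (adjusted p = 0.0650) and the pyruvate dehydrogenase kinase Pdk1 0.52 (0.0874). Of 6 genes of fructose use and the pentose phosphate pathway, H6pd, the glucose-6-phosphate dehydrogenase of the endoplasmic reticulum, had -0.45 (0.0520), and the fructokinase Khk 0.29 (0.165). Of 17 transcriptional regulators of hepatic glucose genes, Foxa1 had -0.54 (0.0641) and Ppargc1a, a coactivator of gluconeogenic transcription, 0.34 (0.107). Of 10 genes that respond to fasting and glucagon, the hepatic hormone Fgf21 had 0.81 (0.0901) and Ppargc1a was again the next. These are the 2 genes with the smallest p in each list.

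**Figure D5:**
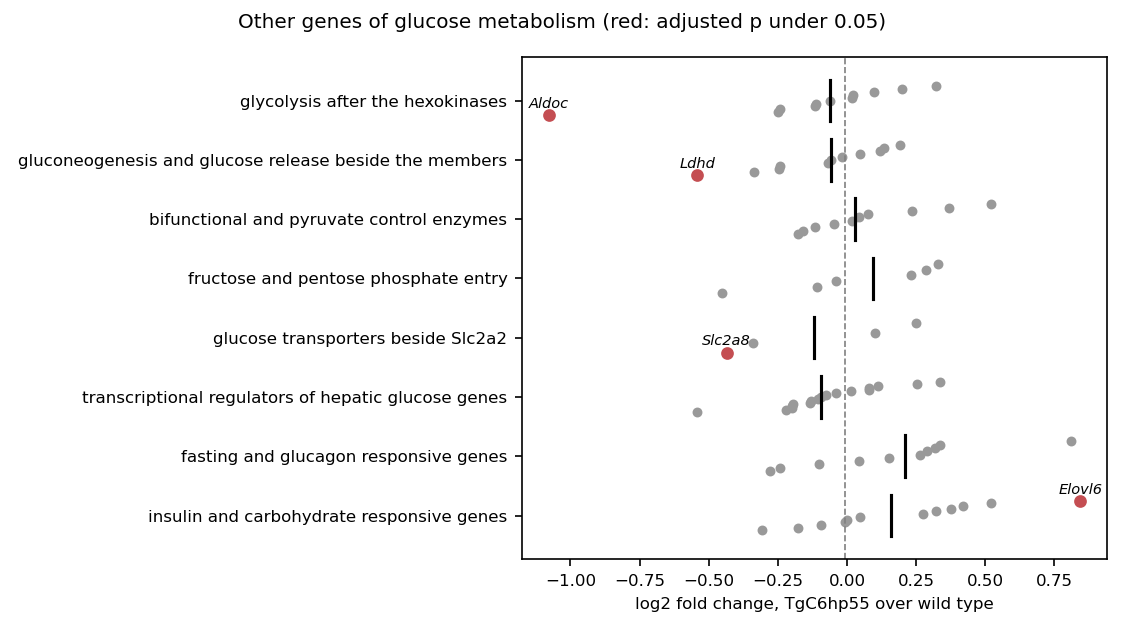
Log2 fold change of TgC6hp55 over wild type livers for each tested gene of the 8 lists of glucose metabolism, with a black bar at the median of a list and a dashed line at the median of all features, -0.0082. The genes with an adjusted p under 0.05, in red, are Aldoc, Ldhd, Slc2a8 and Elovl6.

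Over the 8 livers, the tested genes whose log2 signals were most like that of Hk2 were Fcer1g (Pearson r = 0.990), Lgals3 (0.983) and Stk17b (0.983), and those most like Hk3 were Plcl2 (0.968), Pold3 (0.967) and Iqgap1 (0.965). For Pck1 they were Dnaja4 (0.992), Alg8 (0.986) and Carm1 (0.961), and for G6pc Cbs (0.955), Pnkd (0.936) and Npr1 (0.928). The 8 points fall into 2 groups, so a shared difference between the groups raises such a correlation, and each gene is the most similar of 8540 features. They are given as a description.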

How the data were processed

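Per the labels and the study's methods, liver RNA was hybridised to Illumina Mouse Ref-8 v2.0 BeadChips, and values were made in GenomeStudio 2011.1. The authors deposited intensities without normalization between arrays, a detection p-value beside each intensity, and intensities after cubic spline normalization, both on a linear scale and rounded. Negative intensities, down to -16, show that a background had been subtracted. All TgC6hp55 descriptions carry 1 replicate number, so columns were matched by the number in the sample titles. In R 4.3.3 with limma 3.58.1, the remaining background was corrected by normexp with the help of the detection p-values. After an offset of 16, arrays were brought to 1 distribution (quantile) and logged to base 2. Probes with a detection p under 0.05 on at least 4 of 8 arrays were kept (11100), the brightest probe stood for a gene, and 8540 features entered lmFit and eBayes. The two-sided test of TgC6hp55 against wild type had no covariates, and the threshold was 0.05 after Benjamini-Hochberg adjustment. The lmFit and eBayes step alone was run on simulated normal values with added shifts. That run does not test the background correction, the normalization or the filter on dim probes.

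The genes and the lists were chosen with earlier results of these data known. The text names all 9 genes with every probe, of each pathway list the genes that passed or otherwise the 2 with the smallest p, up to 4 passing markers of a cell type list (Marco, Gapdh, Pkm and Gpd1 were added after their values were seen), and the 3 genes most like Hk2, Hk3, Pck1 and G6pc. Markers of stellate cells (0 of 8 passed), cholangiocytes (0 of 2), adipocytes (0 of 1), red blood cells (1 lower of 2, Alas2) and pancreatic acinar cells (1 lower of 2, Cela1) were also measured. Of all features, 4.51% were lower. For the arrays the study's methods name SAM with a fold change over 1.7, which was not run here. The t-test, an alternative here, is named in the study's general statistics section. Other settings were median scaling, no further background correction, the authors' spline values, an offset of 50, no filter, a detection p under 0.01, all probes, a variance trend with robust estimation, the replicate number as a block and each liver left out. Leaving out TgC6hp55 replicates 3 and 4 together, and the deposited intensities with no offset, were added after seeing the data. Of 23978 probes with 1 gene symbol, 23963 had a symbol found in RefSeq. The files name no genome build, and promoters come from RefSeq on GRCm38.p6.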

Additional observations from a re-analysis of the deposited data

Results flagged for a closer look

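In 26 groups of 4 livers, formed by the 13 probes and 2 genotypes, a liver far from the other 3 was looked for with Dixon's criterion, and 2 groups met it, where chance gives about 1 in 20. For Fbp1, wild type replicate 2 read 11.64, while the other wild type livers read 11.52 to 11.53. For the Pklr probe that no array detected (ILMN_2675491), TgC6hp55 replicate 4 read 4.34, a signal at background.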

How the results depend on the processing

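The number of changed features was 942, and 293 with median scaling, 585 in the methods' t-test (1954 at an unadjusted p under 0.05), 551 without TgC6hp55 replicates 3 and 4, 624 with no further background correction and no offset, and 618 to 918 with 1 liver left out, the lowest without wild type replicate 2. Median scaling moved the median of all features to -0.059 and the share of calls that were higher from 59.1% to 51.9%. Of the 8 tested genes, 2 were higher in the main comparison, 1 with median scaling (Hk2), 1 with no filter on dim probes (Hk2, with 0.0539 for Hk3), 0 in the methods' t-test, 0 without TgC6hp55 replicates 3 and 4 and 0 with no further background correction and no offset. With 1 liver left out the number was 1 to 3, and 0 genes were lower in any setting. Gckr also passed with the authors' spline values (0.0405), an offset of 50 (0.0345), a detection p under 0.01 (0.0479), a variance trend (0.0229), and without wild type replicate 3 (0.0498) or TgC6hp55 replicate 2 (0.0236). The sign turned for Fbp1 with median scaling (-0.037), for Pklr without TgC6hp55 replicate 3 (-0.058, in a range of -0.0584 to 0.296 with 1 liver left out), and for G6pc without wild type replicate 2 (0.067, in a range of -0.298 to 0.0671), without TgC6hp55 replicate 4 (0.024) and without TgC6hp55 replicates 3 and 4 (0.0041), all of these values without a call; the cause was not tested. The deviations of livers with the same replicate number correlated at 0.011 to 0.16. For 3 of 4 wild type livers, replicates 1, 2 and 4, the TgC6hp55 liver with the highest correlation had the same number. The main comparison did not take the numbers as pairs, and whether they mark a shared batch was not tested. With the replicate block 923 features changed, 3 of the 8 genes were higher, and Gckr passed (adjusted p = 0.0227). Probes such as those of Hk2 and Hk3, with intensities of 7 to 64, and of Pck1, with 18 to 64, lie close to background, which limits the precision of their folds.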
